A study of Mus musculus with 21 samples.

Results

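The TGF-beta ligands, receptors and feedback genes are 9 genes of the mouse: the ligands Tgfb1, Tgfb2 and Tgfb3, the receptors Tgfbr1, Tgfbr2 and Tgfbr3, the feedback genes Smad7 and Skil, and the matrix gene Tgfbi. They were found by symbol among 48440 genes of the count table, each matched 1 row, and all 9 passed the filter on low counts. The groups were 3T3-L1 cells overexpressing Esrp2-as (n = 2) and their empty vector controls (n = 2), M27H4 cells overexpressing Esrp2-as (n = 3) and their empty vector controls (n = 3), and M6 cells with Esrp2-as knocked down by LNA gapmers (n = 2) and M6 controls (n = 2), which the labels also call empty vector controls. Esrp2-as is a long noncoding RNA on the strand opposite Esrp2, a splicing factor of epithelial cells. M6 and M27H4 came from mammary tumours of C3(1)SV40 TAg mice, in which the viral T antigen is driven by the C3(1) promoter, so their groups carry that transgene, and 3T3-L1 is a preadipocyte line. All groups grew in DMEM with 10% FCS, and the labels name no added TGF-beta. Each line is 1 line, so a difference between lines describes these 3 lines and not their tissues. The labels give biological replicates without naming separate cultures, so p-values measure only the spread between these samples.

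TGF-beta ligands are made as latent dimers and released at the cell surface or in the matrix. An active ligand brings together the kinase receptors Tgfbr2 and Tgfbr1, and Tgfbr1 then phosphorylates Smad2 and Smad3, which enter the nucleus with Smad4. Tgfbr3, or betaglycan, presents ligand to Tgfbr2. Smad7 blocks Tgfbr1, Skil (SnoN) represses Smad targets, and both are themselves induced by the pathway, while Tgfbi encodes a secreted matrix protein named for its induction by TGF-beta. In mammary epithelium the pathway is known for growth arrest and for epithelial-mesenchymal transition.

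The libraries held 34892461 to 328493417 counts per replicate, with the technical columns of a replicate added together. The technical columns of M6 replicate 2 carried different library codes, and whether they repeat 1 preparation was not given in the sources used here. Esrp2-as averaged 40.6 ± 7.32 CPM (the usual per-library scaling of counts, here with TMM factors) in 3T3-L1 overexpression and 0.303 ± 0.0743 CPM in 3T3-L1 controls (SD, n = 2 each), 47.7 ± 27.6 CPM in M27H4 overexpression and 0.958 ± 0.267 CPM in M27H4 controls (SD, n = 3 each), and 0.689 ± 0.229 CPM in M6 knockdown and 2.69 ± 0.379 CPM in M6 controls (SD, n = 2 each). By edgeR's quasi-likelihood test with Benjamini-Hochberg adjustment it was called in both overexpression comparisons, with adjusted p = 0.00258 in 3T3-L1 and 0.00152 in M27H4, and not in the M6 knockdown, with adjusted p = 0.363. It overlaps Esrp2, so values of both depend on how reads were assigned. The 12 fibroblast and preadipocyte markers summed to 6978 to 8692 CPM in 3T3-L1, 1672 to 2186 in M27H4 and 197 to 418 in M6, and the 10 epithelial markers to 23.4 to 31.4, 149 to 291 and 3938 to 5744 CPM in the same lines. M27H4, a mammary tumour line by its label, held 8 of 10 epithelial markers above 1 CPM on average, against 7 of 10 in 3T3-L1. In M27H4, Cdh1 (E-cadherin) had 80.4 to 169 CPM, Krt18 36.2 to 76.5 CPM and Krt8 6.73 to 21.65 CPM. Pdgfra had 673 to 929 CPM in this line. Krt7, Krt19, Cldn3, Cldn4, Cldn7 and Esrp1 each fell below 1 CPM in their lowest M27H4 control replicate, the last 3 to 0. Epcam of M27H4 was 0.139 CPM in overexpression replicate 1 and 0.0488 CPM in control replicate 1, whose lane held labelled M27H4 libraries only. It was 4.73 to 8.86 CPM in replicates 2 and 3, whose lanes also held M6 libraries.

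In the control cells the 9 genes were compared between the 3 lines. Of the 9, 3 were higher and 6 were lower in 3T3-L1 than in M6 (adjusted p under 0.05, edgeR). Over all genes tested, 20.5% were called higher and 18.9% lower in that comparison. Between 3T3-L1 and M27H4, 1 member was higher and 5 were lower in 3T3-L1, where 18.9% of all genes were higher and 17.8% lower. Between M27H4 and M6, 3 were higher and 3 were lower in M27H4, where 15.2% of all genes were higher and 15% lower. Comparisons of lines share control groups, so their counts are not independent.

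**Figure D1:**
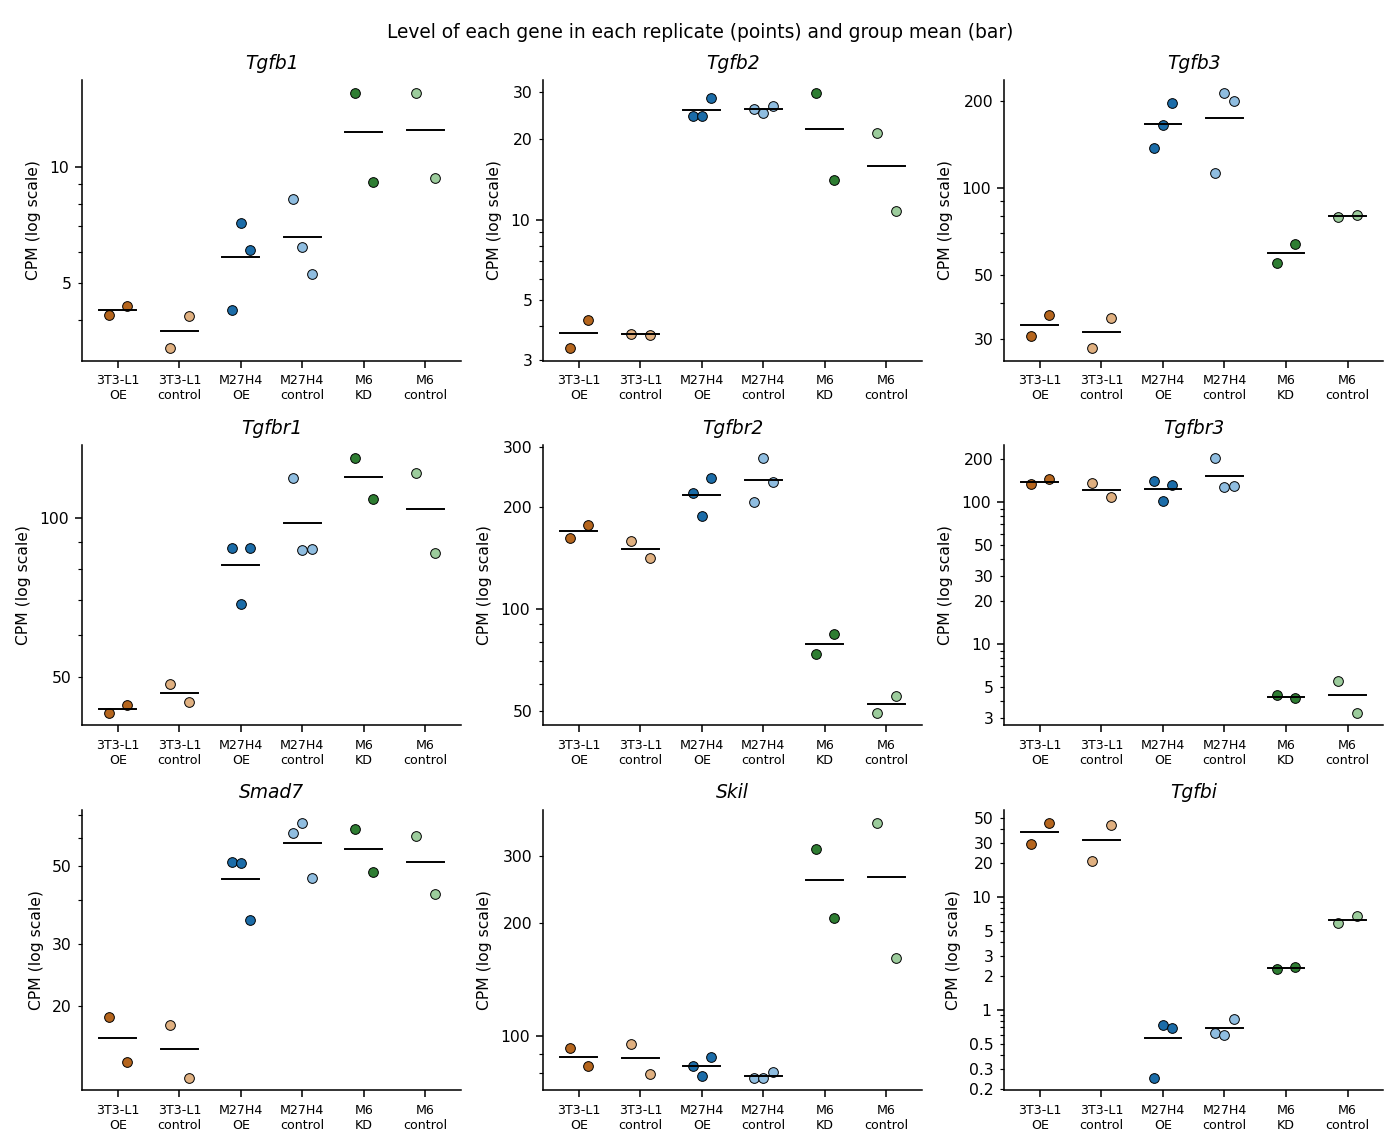
Level of each of the 9 genes in every replicate, as CPM on a log axis, with the group mean as a bar. OE is Esrp2-as overexpression and KD is Esrp2-as knockdown. The control replicates of Tgfbr3 lie between 109 and 205 CPM in 3T3-L1 and M27H4, against 3.28 and 5.53 CPM in M6, and those of Tgfbi lie highest in 3T3-L1 and lowest in M27H4.

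Among the ligands, Tgfb3 was lowest in 3T3-L1 and highest in M27H4. Tgfb3 lies on chr12:86056745-86079041, minus strand (GENCODE M21, GRCm38), and had only 1 annotated transcript to which counts could be assigned. It had 27.9 and 35.5 CPM in 3T3-L1 controls, against 113, 214 and 199.9 CPM in M27H4 controls and 79.7 and 80.9 CPM in M6 controls. No replicate of 1 line overlapped another line, although M27H4 control replicate 1 lay well below the other two. Tgfb3 was 5.54-fold lower in 3T3-L1 than in M27H4 (log2 change -2.47 ± 0.28 SE, adjusted p = 1.4e-05, edgeR) and 2.54-fold lower than in M6 (-1.34 ± 0.28 SE, adjusted p = 0.0018). In M27H4 it was 2.19-fold higher than in M6 (log2 change 1.13 ± 0.26 SE, adjusted p = 0.00465, edgeR). The gene body overlaps 5149 bases of Ttll5 on the other strand, but the exons of the 2 genes share 0 bases.

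Tgfb2, on chr1:186622792-186705989, minus strand, followed the same order of lines. It had 3.76 and 3.72 CPM in 3T3-L1 controls, 26.0, 25.2 and 26.6 CPM in M27H4 controls and 21.1 and 10.8 CPM in M6 controls. The 3T3-L1 values lay below every other replicate, by 6.93-fold against M27H4 (log2 change -2.79 ± 0.35 SE, adjusted p = 3.15e-05, edgeR) and 4.24-fold against M6 (-2.09 ± 0.35 SE, adjusted p = 0.000357). The difference between M27H4 and M6 was not called (log2 change 0.71 ± 0.31 SE, adjusted p = 0.11, edgeR), and without M6 control replicate 1 it was 1.27 with adjusted p = 0.0275, and without M6 control replicate 2 it was 0.31 with adjusted p = 0.532. Tgfb1, on chr7:25687002-25705077, plus strand, was instead highest in M6, with 3.40 and 4.10 CPM in 3T3-L1 controls, 8.24, 6.20 and 5.29 CPM in M27H4 controls and 15.5 and 9.35 CPM in M6 controls. It was 3.31-fold lower in 3T3-L1 than in M6 (log2 change -1.73 ± 0.36 SE, adjusted p = 0.00178, edgeR). Against M27H4 the 3T3-L1 difference was not called (log2 change -0.81, 95% interval -1.52 to -0.10, adjusted p = 0.0698, edgeR).

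The called difference of Tgfb1 between M27H4 and M6 was close to the threshold. It was 1.89-fold lower in M27H4 (log2 change -0.92 ± 0.32 SE, adjusted p = 0.0422, edgeR). The call was lost without M6 control replicate 1 (log2 change -0.51, adjusted p = 0.394), without M27H4 control replicate 2 (-0.88, adjusted p = 0.104) and without M27H4 control replicate 3 (-0.78, adjusted p = 0.129).

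The promoter windows of Tgfb2 and Tgfbi are shown because these genes had the widest spread between lines of the 5 members for which the RefSeq table held a window (Tgfb1, Tgfb2, Tgfbr1, Tgfbr2 and Tgfbi). Each covers 300 bases around the RefSeq start site (GRCm38.p6), mostly upstream of it, and runs 5′ to 3′ with matches of 4 motifs on either strand in capitals. The motifs were CAGACA and GTCTAGAC, which contain letters bound by Smad proteins, and TATAAA and CACGTG, the letters of a TATA box and an E-box, which were added after the windows were read.
Tgfb2, chr1:186705940-186706239, minus strand: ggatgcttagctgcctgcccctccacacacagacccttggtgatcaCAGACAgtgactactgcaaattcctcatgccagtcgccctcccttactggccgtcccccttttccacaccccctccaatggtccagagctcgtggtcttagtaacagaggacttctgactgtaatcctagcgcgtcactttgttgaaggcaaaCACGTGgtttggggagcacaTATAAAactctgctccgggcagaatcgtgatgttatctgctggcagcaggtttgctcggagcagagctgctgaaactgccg
Tgfbi, chr13:56609336-56609635, plus strand: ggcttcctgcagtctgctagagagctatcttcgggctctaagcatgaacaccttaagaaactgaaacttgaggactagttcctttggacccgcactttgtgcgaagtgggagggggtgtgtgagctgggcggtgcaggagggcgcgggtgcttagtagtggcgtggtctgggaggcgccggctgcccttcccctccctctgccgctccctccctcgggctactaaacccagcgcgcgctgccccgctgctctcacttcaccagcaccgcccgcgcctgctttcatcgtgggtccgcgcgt
The Tgfb2 window held CAGACA with its first base at -204, CACGTG at -51 and TATAAA at -31 relative to the start site, each once and with no overlap. The Tgfbi window held none of the 4. Of all 32851 windows, 21.04% held CAGACA, 0.213% GTCTAGAC, 13.6% TATAAA and 7.15% CACGTG. Among the other windows, 1 of 2 of Tgfbr1 held CAGACA, and those of Tgfb1 and Tgfbr2 held no match. A match describes the letters in the window and not a bound site.

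When each level was divided by the merged exon length of its gene, Tgfb3 made up most of the summed ligand level in every group. Its share of the summed CPM per kb was 86.9% ± 0.297 in 3T3-L1 overexpression and 87% ± 1.15 in 3T3-L1 controls (SD, n = 2 each), 89.7% ± 0.771 in M27H4 overexpression and 89.2% ± 4.12 in M27H4 controls (SD, n = 3 each), and 74% ± 10.9 in M6 knockdown and 82.2% ± 6.18 in M6 controls (SD, n = 2 each). With lengths weighted by the assigned transcripts the mean share was 62.7% in M6 knockdown and 72.3% in M6 controls, and 77.7% to 86.0% in the other groups. The ligand sum itself was 10.8 ± 1.68 CPM per kb in 3T3-L1 controls (SD, n = 2), 57.7 ± 15.9 in M27H4 controls (SD, n = 3) and 28.9 ± 1.87 in M6 controls (SD, n = 2).

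**Figure D2:**
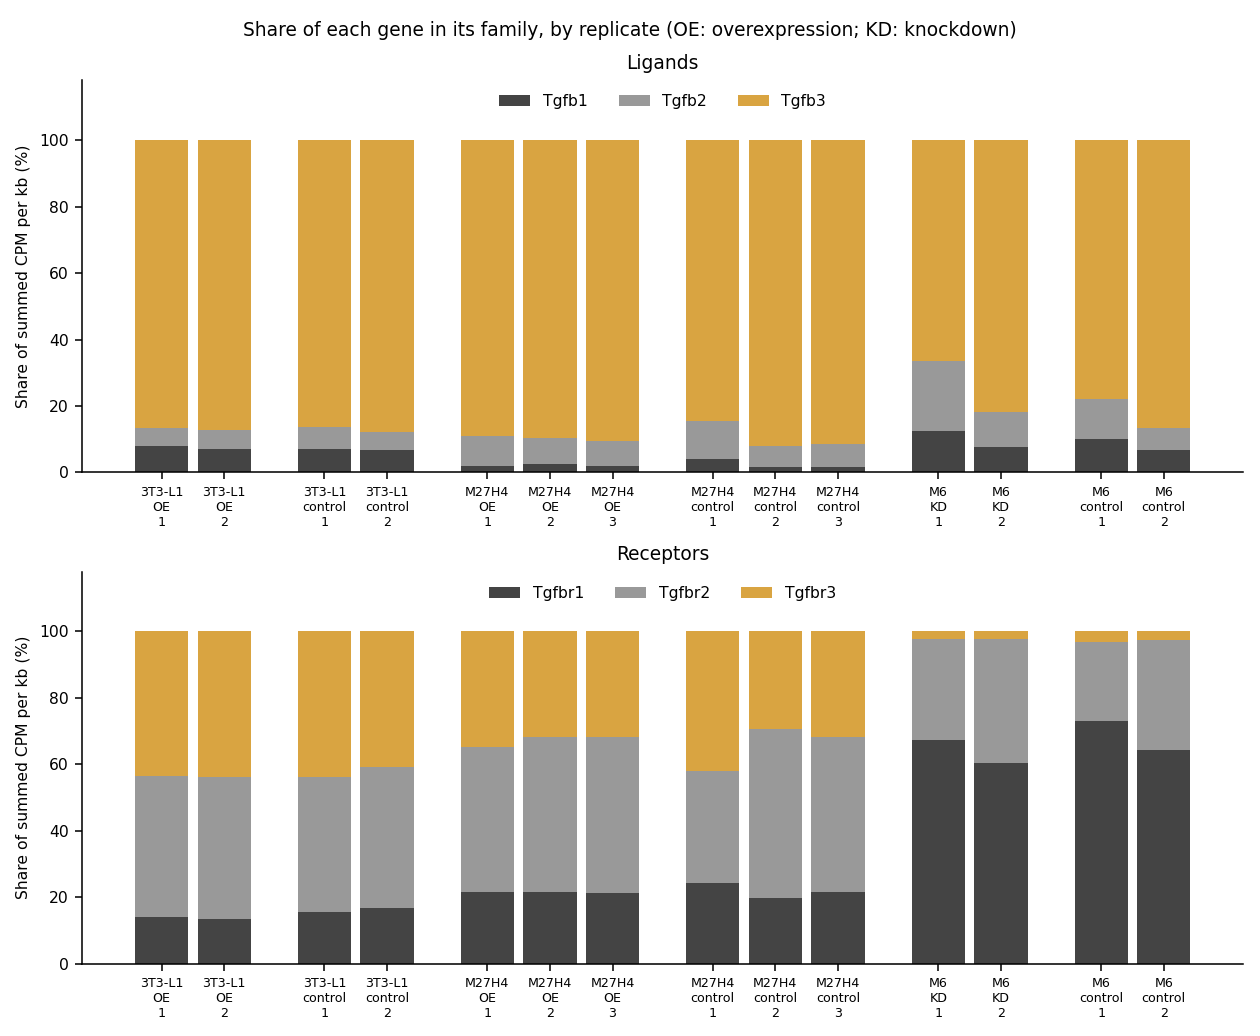
Share of each gene in the summed CPM per kb of its family, for the 3 ligands (upper panel) and the 3 receptors (lower panel), with 1 bar per replicate. Tgfb3 fills most of each ligand bar, while Tgfbr1 fills most of each M6 receptor bar and the smallest part of each 3T3-L1 and M27H4 receptor bar.

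Among the receptors, Tgfbr3 had the largest difference between lines. Betaglycan has a short cytoplasmic tail without kinase activity and acts as a coreceptor, with a known role in the binding of Tgfb2. Tgfbr3, on chr5:107106570-107289629, minus strand, had 136 and 109 CPM in 3T3-L1 controls, 205, 128 and 129 CPM in M27H4 controls and 5.53 and 3.28 CPM in M6 controls. The 3T3-L1 and M27H4 ranges overlapped, and every M6 replicate lay far below both. Tgfbr3 was 28.0-fold higher in 3T3-L1 than in M6 (log2 change 4.81 ± 0.33 SE, adjusted p = 1.5e-07, edgeR) and 35.2-fold higher in M27H4 than in M6 (5.14 ± 0.33 SE, adjusted p = 1.62e-07). Between 3T3-L1 and M27H4 the log2 change was -0.33 (95% interval -0.89 to 0.23, adjusted p = 0.353, edgeR), an interval that includes 0. In the lane with labelled M6 libraries only, Tgfbr3 had 5.99 CPM of the column total in control replicate 1 and 4.66 in knockdown replicate 1. Replicate 1 had no column in a lane shared with other lines. Control replicate 2 had 2.92 CPM in the M6 lane, against 3.21 and 3.04 CPM in shared lanes. Knockdown replicate 2 had 3.32 CPM in the M6 lane, against 4.48 CPM in a shared lane. The source of these counts was not tested. The overlapping same-strand gene models Gm43422, Gm43423 and Gm42900 stayed at or below 0.894 CPM.

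Tgfbr2, the kinase receptor that binds ligand first, was also low in M6. It lies on chr9:116084293-116175360, minus strand, and had 159 and 141 CPM in 3T3-L1 controls, 206, 279 and 237 CPM in M27H4 controls and 49.4 and 55.4 CPM in M6 controls. The 3 lines did not overlap. It was 2.86-fold higher in 3T3-L1 than in M6 (log2 change 1.52 ± 0.20 SE, adjusted p = 4.38e-05, edgeR) and 4.59-fold higher in M27H4 than in M6 (2.20 ± 0.19 SE, adjusted p = 1.81e-06). It was 1.61-fold lower in 3T3-L1 than in M27H4 (log2 change -0.68 ± 0.18 SE, adjusted p = 0.00911, edgeR), a call that was lost without 3T3-L1 control replicate 2 (-0.58, adjusted p = 0.0891).

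Tgfbr1, the kinase receptor that phosphorylates Smads, on chr4:47353222-47414931, plus strand, did not share this pattern. It had 48.6 and 44.8 CPM in 3T3-L1 controls, 119, 87.0 and 87.2 CPM in M27H4 controls and 122 and 85.9 CPM in M6 controls. The M27H4 and M6 ranges overlapped, and the 3T3-L1 values lay below both. It was 2.10-fold lower in 3T3-L1 than in M27H4 (log2 change -1.07 ± 0.21 SE, adjusted p = 0.00136, edgeR) and 2.23-fold lower than in M6 (-1.15 ± 0.23 SE, adjusted p = 0.00114), while M27H4 and M6 differed by -0.09 (95% interval -0.53 to 0.35, adjusted p = 0.8). Of the summed receptor CPM per kb, Tgfbr1 therefore took 16.2% ± 0.877 in 3T3-L1 controls (SD, n = 2), 22% ± 2.30 in M27H4 controls (SD, n = 3) and 68.8% ± 6.15 in M6 controls (SD, n = 2). Tgfbr3 took 42.2% ± 2.09, 34.3% ± 6.68 and 2.88% ± 0.600 in the same groups. With transcript-weighted lengths the Tgfbr1 share was 17.5%, 23.1% and 68.6%.

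Smad7, on chr18:75367529-75395935, plus strand, was, like Tgfbr1, lowest in 3T3-L1. It had 17.7 and 12.5 CPM in 3T3-L1 controls, 62.4, 66.4 and 46.3 CPM in M27H4 controls and 61.2 and 41.8 CPM in M6 controls. M27H4 and M6 overlapped, and 3T3-L1 lay below both. Smad7 was 3.86-fold lower in 3T3-L1 than in M27H4 (log2 change -1.95 ± 0.28 SE, adjusted p = 0.000113, edgeR) and 3.40-fold lower than in M6 (-1.77 ± 0.29 SE, adjusted p = 0.000324). Between M27H4 and M6 the log2 change was 0.18 (95% interval -0.38 to 0.75, adjusted p = 0.66, edgeR).

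Skil, on chr3:31095058-31122577, plus strand, was high in M6 alone of the control groups, but the M6 libraries disagreed on how high. It had 95.6 and 79.6 CPM in 3T3-L1 controls, 77.8, 77.9 and 80.6 CPM in M27H4 controls and 367 and 161 CPM in M6 controls. M6 control replicate 1 lay far above replicate 2, and the 3 columns of replicate 2 held 121, 165 and 180 CPM of their totals. Skil was 3.02-fold lower in 3T3-L1 than in M6 (log2 change -1.59 ± 0.31 SE, adjusted p = 0.00107, edgeR) and 3.35-fold lower in M27H4 than in M6 (-1.74 ± 0.27 SE, adjusted p = 0.000251). Without M6 control replicate 1 these log2 changes were -0.87 (adjusted p = 0.02) and -1.03 (adjusted p = 0.00584). Control libraries of all 3 lines shared 2 lanes, and both lanes held the same library of each line. Inside these lanes the log2 difference was -0.36 and -0.76 for 3T3-L1 over M6 and -0.82 and -1.10 for M27H4 over M6.

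The other called differences kept their direction in those lanes. For 3T3-L1 over M6 the within-lane log2 differences were 5.43 and 5.48 for Tgfbr3, 1.64 in both lanes for Tgfbr2 and -1.39 and -1.32 for Tgfb1. The values for Tgfb1 were smaller than its pooled change. So were those for Tgfbr1, at -0.60 and -0.75, Smad7, at -1.14 and -1.05, Tgfb2, at -1.49 and -1.22, and Tgfbi, at 1.82 and 1.69. Those for Tgfb3, at -1.45 and -1.41, Tgfbr2 and Tgfbr3 were not smaller. M6 control replicate 1 and 3T3-L1 control replicate 2 had no column in these lanes. For Tgfbr3 over the same lanes M27H4 exceeded M6 by 5.22 and 5.32. These values rest on 1 control library of each line, sequenced in both lanes.

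Tgfbi, on chr13:56609523-56639562, plus strand, had the widest range of the 9 genes. Its protein binds collagens and integrins in the matrix. It had 20.8 and 43.6 CPM in 3T3-L1 controls, 0.618, 0.603 and 0.832 CPM in M27H4 controls and 5.86 and 6.73 CPM in M6 controls. The 3 lines did not overlap, and the 3T3-L1 replicates differed from each other by more than those of the other lines. Tgfbi was 46.9-fold higher in 3T3-L1 than in M27H4 (log2 change 5.55 ± 0.42 SE, adjusted p = 4.01e-07, edgeR) and 5.11-fold higher than in M6 (2.35 ± 0.42 SE, adjusted p = 0.000602). Without 3T3-L1 control replicate 2 these were 4.94 (adjusted p = 3.59e-06) and 1.70 (adjusted p = 0.0109). In M27H4 it was 9.19-fold lower than in M6 (log2 change -3.20 ± 0.39 SE, adjusted p = 2.85e-05, edgeR). The lane with labelled M27H4 libraries only held 0.258 CPM in the overexpression and 0.628 CPM in the control column, so the low M27H4 level was also measured away from libraries of other lines.

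**Figure D3:**
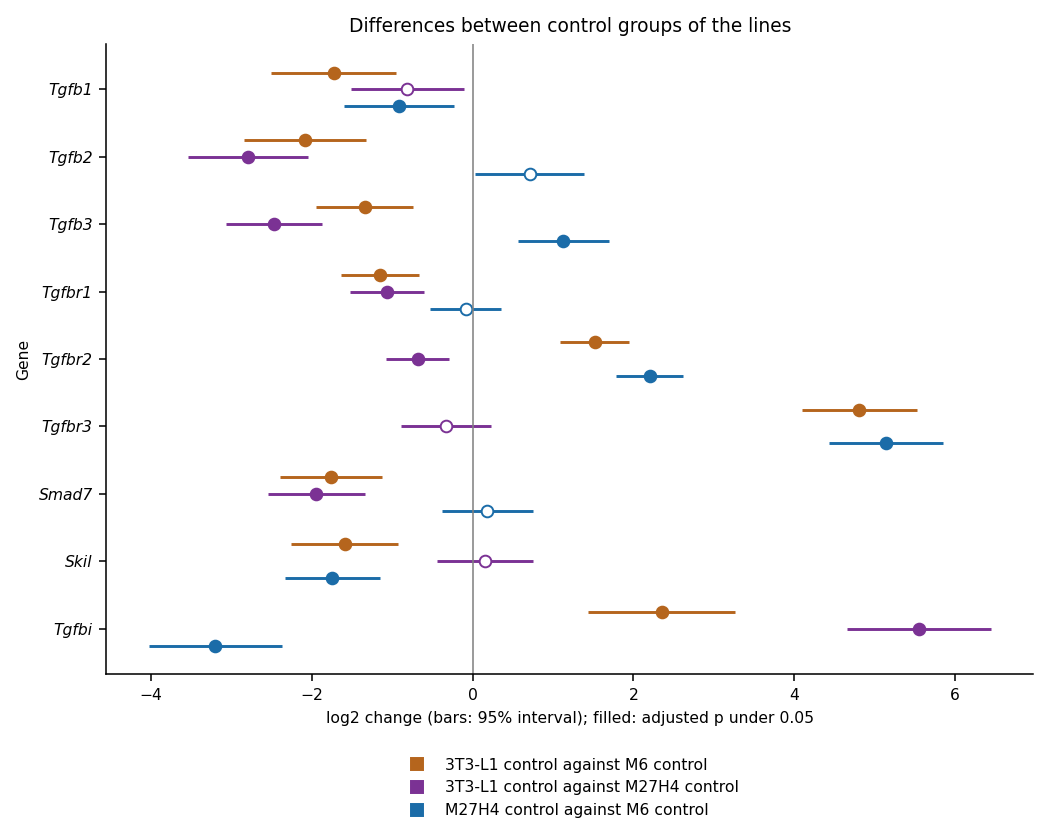
Difference in each gene between control groups of the lines, as log2 change with its 95% interval, where positive means higher in the line named first. Filled points passed an adjusted p of 0.05. Tgfbr3 lies near 5 in both comparisons against M6, and Tgfbi reaches 5.55 for 3T3-L1 over M27H4.

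The order of the 9 genes by CPM per kb differed between lines. In 3T3-L1 controls Tgfbr3 (18.7 ± 3.00 CPM per kb) and Tgfbr2 (18.3 ± 1.502) led and did not differ beyond their spread (SD, n = 2). Tgfb3, Skil, Tgfbi and Tgfbr1 followed at 7.15 to 9.36 CPM per kb, and Tgfb1 and Tgfb2 were last at 0.743 and 0.646. In M27H4 controls Tgfb3 led at 51.9 ± 16.2 CPM per kb (SD, n = 3), ahead of Tgfbr2 at 29.4 ± 4.44 and Tgfbr3 at 23.5 ± 6.72, and Tgfbi was last at 0.181 ± 0.0340. In M6 controls Skil (27.3 ± 15 CPM per kb) and Tgfb3 (23.7 ± 0.256) led within their spread (SD, n = 2), and Tgfbr3 was last at 0.673 ± 0.242. With transcript-weighted lengths some values moved by over 1.5 times and the order changed in part. In 3T3-L1 controls Tgfbr2 (25.95 CPM per kb) then lay above Tgfbr3 (20.2), Skil was 14.8, Tgfb3 (9.36) stood behind Tgfbi (11.9) and Tgfbr1 (9.81), and Tgfb1 was 1.78. In M6 controls Skil was 42.8 CPM per kb and Tgfbr3 was still last at 0.797.

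Counts of the transcripts of the members were split unevenly. Tgfb3-201 and Tgfbi-201 were the only annotated transcripts counted for their genes, so they held all counts by default. Tgfbr3-201 held 99.4% in 3T3-L1, 99.5% in M27H4 and 89.6% in M6, where the gene was low. The retained-intron transcript Tgfb1-204 held 8.43% in 3T3-L1, 12.7% in M27H4 and 8.94% in M6. Tgfb2-201 held 76.9%, 78.4% and 75.9% in those lines, and Tgfbr2-201 held 54.5%, 49.3% and 55.9%. The Tgfb2-206 share differed by 29.8 percentage points between the lanes of 1 library, the 3T3-L1 control replicate 1. The gap was 42.75 points for Skil-204 in M6 control replicate 2 and 34.6 points for Tgfbr1-201 in M27H4 overexpression replicate 2. For this reason none of these splits is read as a difference between lines. The transcript-weighted lengths used above rest on the same splits.

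With Esrp2-as overexpressed or knocked down, 0 of the 9 genes were called in any of the 3 comparisons in the fit without a replicate block. The background was low as well. By edgeR, 0.00471% of the 21237 genes tested were called in 3T3-L1 overexpression (1 gene), 0.00942% in M27H4 overexpression (2 genes) and 0.137% in M6 knockdown (29 genes). At an unadjusted p under 0.05 the 9 genes gave 0, 0 and 2 in these comparisons, where 0.946%, 1.69% and 6.27% of all genes passed. DESeq2 also called 0 of 9 in each, where it called 0.0474%, 0.0115% and 1.13% of the genes to which it gave an adjusted p. The difference between the M27H4 and the 3T3-L1 overexpression effects was called for 0 of the 9 genes and 0.00471% of all genes by edgeR. At an unadjusted p under 0.05 it was 0 of 9 and 1.51% of all genes, and by DESeq2 0 of 9 and 0.0332%.

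**Figure D4:**
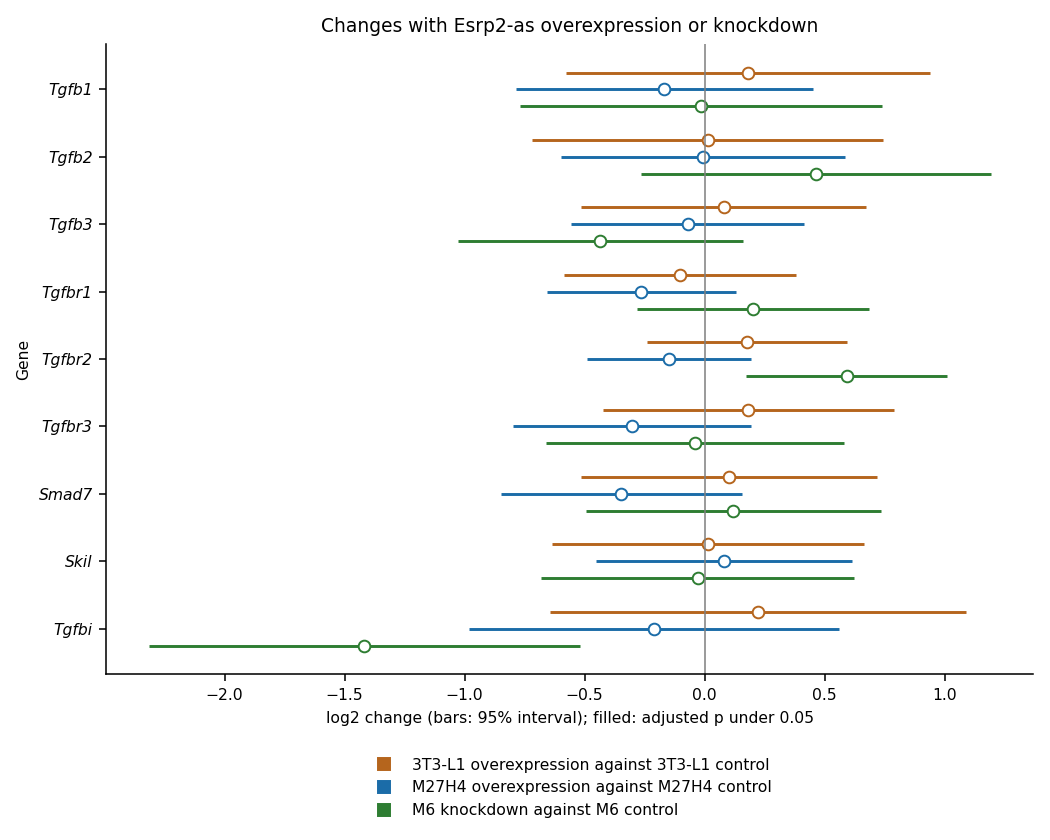
Change in each gene with Esrp2-as overexpression in 3T3-L1 and M27H4 and with Esrp2-as knockdown in M6, as log2 change over the control with its 95% interval. Open points did not pass an adjusted p of 0.05. The intervals of Tgfbi and Tgfbr2 in M6 do not include 0, and all others do.

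In M6, Tgfbi and Tgfbr2 had the smallest adjusted p of the 9 genes. Tgfbi had 2.32 and 2.40 CPM in M6 knockdown, against 5.86 and 6.73 CPM in M6 controls. Both knockdown replicates lay below both controls, by a log2 change of -1.42 (95% interval -2.32 to -0.52, adjusted p = 0.384, edgeR). The pairs of columns in the lane with labelled M6 libraries only differed by -1.35 and -1.72 on the log2 scale. DESeq2 gave adjusted p = 0.0592, and over all alternatives the adjusted p ran from 0.0389, below the threshold, with the replicate number as a block to 1 without M6 knockdown replicate 1. The 12 fibroblast and preadipocyte markers summed to 197 and 202 CPM in M6 knockdown, against 367 and 418 CPM in M6 controls. Of them, 8 of 12 averaged over 1 CPM in the knockdown and 7 of 12 in controls, Lum was at 0 in controls, and the top gene Col6a1 averaged 116 CPM in the knockdown and 256 CPM in controls. Col6a2 had 38.7 to 44.0 CPM in the knockdown against 73.8 to 99.3 CPM in controls, and Pdgfra 8.67 to 13.2 against 15.8 to 17.3 CPM. Dcn was instead higher, at 0.605 to 2.00 against 0.224 to 0.414 CPM. The ranges of Pdgfrb, Thy1, Col1a1, Col1a2, Col3a1, Dlk1 and Zfp423 overlapped, so the list did not move as a whole. Their part in the Tgfbi values was not tested. In bulk RNA fewer cells of a type and less RNA per cell cannot be told apart.

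Tgfbr2 had 73.7 and 84.2 CPM in M6 knockdown, against 49.4 and 55.4 CPM in M6 controls. The log2 change was 0.59 (95% interval 0.17 to 1.01, adjusted p = 0.498, edgeR), with 0.57 and 0.36 for the pairs in the M6 lane. Tgfb3 had 54.8 and 64.0 CPM in M6 knockdown, against 79.7 and 80.9 CPM in M6 controls, a log2 change of -0.43 (95% interval -1.03 to 0.16, adjusted p = 0.969, edgeR). These 3 genes were the members whose M6 replicate ranges did not overlap, 3 of 9, where 26.4% of all genes tested were separate in the same way. Tgfb2 and Tgfb1 had intervals of -0.26 to 1.19 and -0.77 to 0.74 on the log2 scale, and Tgfbr1, Tgfbr3, Smad7 and Skil changed by 0.20, -0.04, 0.12 and -0.03.

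In M27H4, the line with 3 replicates in each group, 0 of the 9 genes had separate replicate ranges, against 5.1% of all genes. The log2 changes ran from -0.35 for Smad7 to 0.08 for Skil. Smad7 had 51.5, 51.1 and 35.2 CPM in M27H4 overexpression, against 62.4, 66.4 and 46.3 CPM in M27H4 controls, with a 95% interval of -0.85 to 0.16. It was lower in the overexpression in all 3 pairs of replicates with the same number, which shared lanes. Smad7 was named for having the lowest change of the 9, and its unadjusted p was 0.161 (edgeR). How many of all genes had 3 pairs in 1 direction was not counted. Tgfbi stayed at 0.250, 0.739 and 0.685 CPM in M27H4 overexpression, against 0.618, 0.603 and 0.832 CPM in M27H4 controls.

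In 3T3-L1, 3 of the 9 genes had separate replicate ranges, where 23.2% of all genes did. Tgfb1 had 4.13 and 4.35 CPM in 3T3-L1 overexpression, against 3.40 and 4.10 CPM in 3T3-L1 controls (log2 change 0.18, 95% interval -0.58 to 0.94). Tgfbr2 had 162 and 177 CPM in 3T3-L1 overexpression, against 159 and 141 CPM in 3T3-L1 controls (0.18, interval -0.24 to 0.59). Tgfbr1 had 42.8 and 44.2 CPM in 3T3-L1 overexpression, against 48.6 and 44.8 CPM in 3T3-L1 controls (-0.10, interval -0.58 to 0.38). All 3 gaps were small beside the intervals.

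The search for genes like each member covered 11641 tested genes with a mean of at least 1 CPM. It left out, by their symbols, numbered gene models, named pseudogenes, and mitochondrial, small RNA and ribosomal protein genes. The genes most like each member over the 14 replicates were found by the root mean square difference of centred log2(CPM + 0.5). For Tgfbr2 they were Epb41l1, Osr1 and Ust, at 0.121, 0.167 and 0.167, where the spread of Tgfbr2 itself was 0.786. For Tgfbr3 they were Antxr1, Galnt7 and Mark1, at 0.256 to 0.317 with an own spread of 2.19, and for Tgfbr1 Snx13, Rab11fip1 and Klf9, at 0.132 to 0.138 with an own spread of 0.548. Antxr1 had the pattern of Tgfbr3, averaging 20.7 CPM in 3T3-L1 controls and 19.7 CPM in M27H4 controls, against 0.0895 CPM in M6 controls. For Tgfb1 the nearest were Pcnx, Epb41l2 and Diaph1, for Tgfb2 Mgat5, Adarb1 and Hsf4, and for Tgfb3 Lynx1, C2cd2l and Angpt1, at 0.199 to 0.324. For Smad7 they were Sgo2a, Bard1 and Sos2, and for Skil Cblb, Esco1 and Lcor, at 0.193 to 0.213.

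For Tgfbi the nearest genes were Hoxa2, Trim47 and Tns1, at 0.278, 0.369 and 0.395 with an own spread of 2.09. Hoxa2 averaged 1.43 CPM in M6 knockdown and 2.90 CPM in M6 controls, and Tns1 1.96 and 3.88 CPM in the same groups. The M6 samples were among those used to pick these genes, so their likeness to Tgfbi there is no separate result. Between members the closest pair was Tgfb1 and Tgfbr1, at 0.364, followed by Tgfbr1 and Smad7 at 0.387. The farthest was Tgfb2 and Tgfbi, at 3.20. These distances share libraries and the line differences above, and they are a description.

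Other genes of the pathway were taken as 5 lists with 78 genes, of which 76 were tested. In 3T3-L1 controls, 27 were higher and 17 lower than in M6 controls (median log2 change 0.01, against 0.05 over all genes), where 20.5% of all genes were higher and 18.9% lower. They gave 28 higher and 16 lower than in M27H4 controls (median 0.35, against 0.02), where 18.9% and 17.8% of all genes were. In M27H4 controls, 17 were higher and 21 lower than in M6 controls (median 0.18, against 0.02), where 15.2% and 15% of all genes were. The same shares of all genes stand behind the counts of each list.

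**Figure D5:**
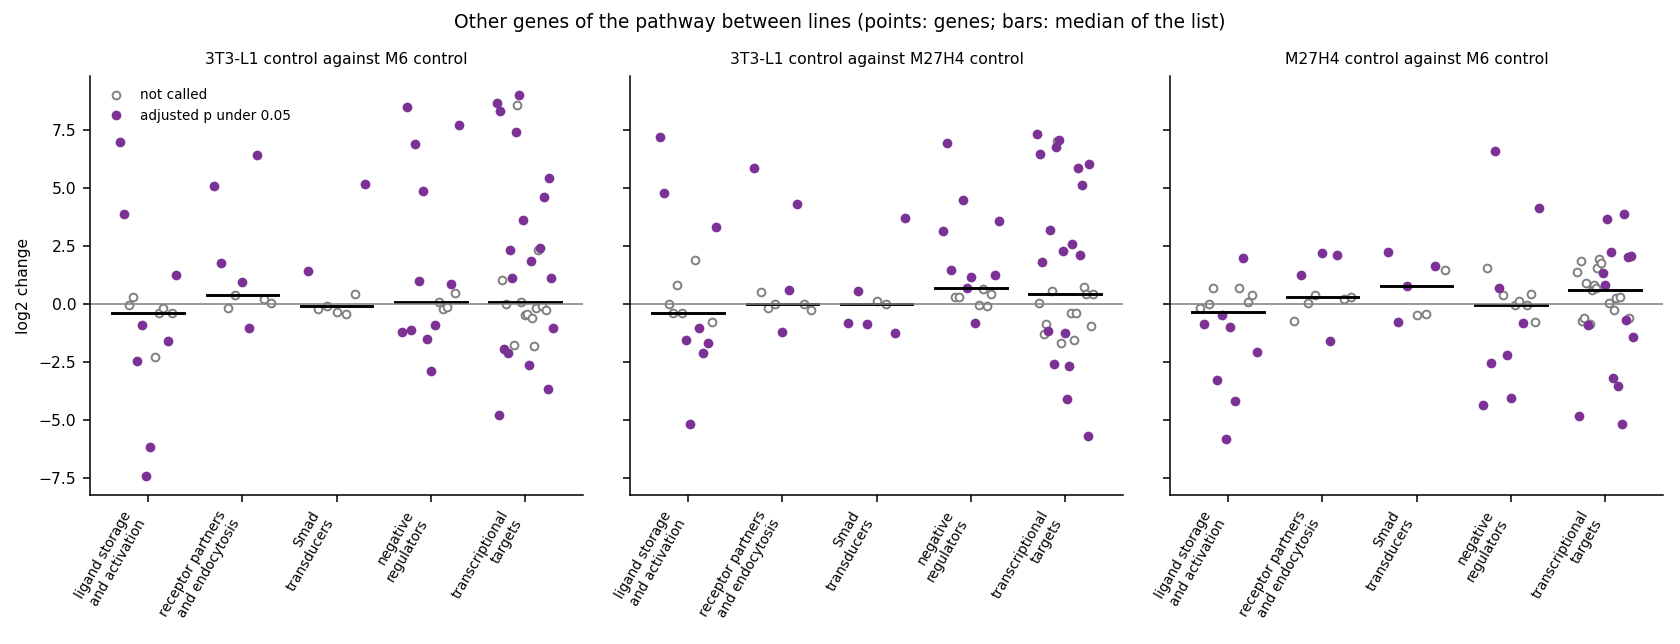
Log2 change of the other genes of the pathway between control groups of the lines, by list, with the median of each list as a bar. Filled points passed an adjusted p of 0.05. Calls in both directions occur in most lists, and the 2 calls among Smad transducers for 3T3-L1 over M6 are both higher.

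Among 14 tested genes of ligand storage and activation, 3 were higher and 5 lower in 3T3-L1 than in M6, 3 higher and 5 lower than in M27H4, and 1 higher and 7 lower in M27H4 than in M6. Itgb6, an integrin subunit that frees latent TGF-beta in epithelia, averaged 0.164 ± 0.11 CPM in 3T3-L1 controls (SD, n = 2), 0.475 ± 0.071 CPM in M27H4 controls (SD, n = 3) and 27.01 ± 5.87 CPM in M6 controls (SD, n = 2). Itgb8, a subunit with the same role, averaged 0.934 ± 0.278, 33.8 ± 9.27 and 66.8 ± 33.6 CPM in these groups. Fbn1, the microfibril protein that anchors latent complexes, averaged 587 ± 274, 21.7 ± 6.57 and 39.9 ± 9.63 CPM. Thbs1, a matrix protein that can activate latent ligand, averaged 1098 ± 6.36, 110 ± 23.8 and 459 ± 223 CPM. Itgb6 was highest in M6 and Fbn1 and Thbs1 in 3T3-L1, while for Itgb8 the M6 and M27H4 ranges overlapped (43 CPM in M6 control replicate 2 and 44.5 CPM in M27H4 control replicate 1). Itgb3, another integrin subunit, averaged 21.6 ± 1.71, 12.3 ± 3.98 and 119.9 ± 39.4 CPM. Against M6, Itgb6, Itgb8 and Fbn1 were called in 3T3-L1 (adjusted p = 1.26e-07, 3.81e-07 and 3.98e-06, edgeR).

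Among 9 tested receptor partners, 4 were higher and 1 lower in 3T3-L1 than in M6, 3 higher and 1 lower than in M27H4, and 3 higher and 1 lower in M27H4 than in M6. Acvrl1, a type I receptor known from endothelial cells, averaged 5.26 ± 0.411 CPM in 3T3-L1 controls (SD, n = 2), 0.0933 ± 0.0233 CPM in M27H4 controls (SD, n = 3) and 0.137 ± 0.105 CPM in M6 controls (SD, n = 2). Tgfb1i1, a focal adhesion adaptor, averaged 9.85 ± 0.539, 0.497 ± 0.0904 and 0.117 ± 0.00983 CPM. Of the coreceptors, Nrp1 averaged 159 ± 36.8, 374 ± 25.3 and 82.9 ± 13.1 CPM and Nrp2 127 ± 9.55, 84.3 ± 8.83 and 259 ± 70.9 CPM. Dab2, an endocytic adaptor, averaged 19.7 ± 1.16, 13.8 ± 4.59 and 5.87 ± 1.43 CPM. Among 7 Smad transducers, 2 were higher and 0 lower in 3T3-L1 than in M6, namely Smad1 and Smad9. In 3T3-L1, 2 were higher and 3 lower than in M27H4, with Smad1 among the lower. In M27H4, 3 were higher and 1 lower than in M6. Smad1, which mainly transduces BMP signals, averaged 33.9 ± 5.30, 60.9 ± 2.85 and 12.9 ± 0.0778 CPM in the 3 control groups. Smad9 had 2.06 and 1.16 CPM in 3T3-L1 controls, against 0 and 0.0617 CPM in M6 controls. Smad6, an inhibitory Smad, averaged 24.5 ± 2.89, 57.9 ± 12.9 and 18.5 ± 3.51 CPM. Smad2, a TGF-beta transducer, averaged 86.9 ± 10.2, 59.7 ± 9.41 and 102 ± 3.42 CPM and was lower in M27H4 than in M6 (log2 change -0.77 ± 0.17 SE, adjusted p = 0.00304, edgeR).

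Of 15 negative regulators, 6 were higher and 5 lower in 3T3-L1 than in M6, 8 higher and 1 lower than in M27H4, and 3 higher and 5 lower in M27H4 than in M6. Pmepa1, a TGF-beta target that sequesters Smads, averaged 19.9 ± 3.92 CPM in 3T3-L1 controls (SD, n = 2), 8.88 ± 2.84 CPM in M27H4 controls (SD, n = 3) and 146 ± 17.6 CPM in M6 controls (SD, n = 2). Bambi, a decoy receptor, averaged 4.70 ± 0.651, 0.526 ± 0.0947 and 11.02 ± 1.07 CPM. Cd109, a coreceptor that dampens signalling, averaged 61.6 ± 24.0, 22.6 ± 3.62 and 133 ± 26.4 CPM. Nedd4l, a ubiquitin ligase that acts on Smads, averaged 22.6 ± 6.21, 14.2 ± 2.24 and 65.1 ± 14.5 CPM. Tgif2, a nuclear corepressor, was lowest in M6, with 11.4 and 11.2 CPM in 3T3-L1 controls, 0.829, 1.13 and 0.848 CPM in M27H4 controls and 0 and 0.0714 CPM in M6 controls, and was called higher in 3T3-L1 than in M6 (adjusted p = 2.06e-06, edgeR). Pmepa1, Bambi and Cd109 were lowest in M27H4, where each was called lower than in M6 (adjusted p = 5.08e-07, 6.03e-07 and 3.43e-06, edgeR). Dcn of this list is also on the fibroblast marker list.

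Of 31 genes listed as transcriptional targets, 12 were higher and 6 lower in 3T3-L1 than in M6, 12 higher and 6 lower than in M27H4, and 7 higher and 7 lower in M27H4 than in M6. Adam12, a metalloprotease, averaged 5.23 ± 2.69 CPM in 3T3-L1 controls (SD, n = 2), 5.13 ± 1.65 CPM in M27H4 controls (SD, n = 3) and 146 ± 11.1 CPM in M6 controls (SD, n = 2). Snai2, a repressor of epithelial genes, averaged 19.8 ± 2.50, 12.02 ± 1.59 and 0.835 ± 0.254 CPM. Sphk1, a lipid kinase, averaged 2.21 ± 0.588, 113 ± 22.6 and 28.4 ± 8.46 CPM, and Id2, an inhibitor of basic helix-loop-helix factors, averaged 7.72 ± 1.43, 132 ± 26.7 and 10.5 ± 1.87 CPM. Id3, of the same family, averaged 35.4 ± 0.354, 224 ± 46.3 and 218 ± 85.2 CPM. Members of this list thus had their highest level in different lines. Of this list, Col1a1, Col1a2 and Col3a1 are also on the fibroblast marker list and Acta2 on that of basal cells.

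With Esrp2-as changed, 0 of the 76 genes were called in any of the 3 comparisons (edgeR). Of all genes tested, 0.137% were called in M6, 0.00942% in M27H4 and 0.00471% in 3T3-L1. In M6, Cdkn1a, an inhibitor of the cell cycle, averaged 18.3 ± 0.856 CPM in the knockdown and 4.28 ± 0.45 CPM in controls (SD, n = 2 each; log2 change 2.10, adjusted p = 0.117, edgeR). Acvrl1 averaged 0.773 ± 0.0788 CPM in the knockdown and 0.137 ± 0.105 CPM in controls (2.31, adjusted p = 0.127). Smad3 averaged 145 ± 1.13 CPM in the knockdown and 82.3 ± 0.721 CPM in controls (0.81, adjusted p = 0.216), and Ltbp4, a latent TGF-beta binding protein, 4.30 ± 0.967 and 9.25 ± 4.10 CPM (-1.11, adjusted p = 0.5). Bambi averaged 6.57 ± 0.904 CPM in the knockdown and 11.02 ± 1.07 CPM in controls (-0.75, adjusted p = 0.789). Of the transcriptional targets, Snai2 and Hmga2 also changed by 1.67 and 1.55 (adjusted p = 0.157 and 0.152, edgeR), and Tsc22d1 by -0.70 (adjusted p = 0.48). In that list 13 of 31 genes had a positive change. Each gene named here for M6 had an unadjusted p under 0.05 (edgeR), where 6.27% of all genes did. In M27H4 overexpression the genes with the smallest p of each list were Furin, Hgs, Smad5, Ski and Cdkn1a, at log2 changes of -0.49, -0.19, -0.34, -0.23 and -0.51 (adjusted p = 1 for each, edgeR). In 3T3-L1 overexpression they were Furin, Tgfb1i1, Smad6, Tgif2 and Il11, at 0.40, 0.57, 0.17, 0.48 and 0.30 (adjusted p = 1 for each). For the M27H4 minus the 3T3-L1 effect they were the same genes as in M27H4, at -0.88, -0.35, -0.32, -0.40 and -0.62 (adjusted p = 1 for each). None of these passed the threshold, and the medians of all 76 genes were -0.04 in M6, -0.10 in M27H4 and 0.07 in 3T3-L1, against -0.03, -0.03 and 0.00 over all genes.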

How the data were processed

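RNA from 14 biological replicates in 6 groups was sequenced in 21 columns (RNeasy, Ribo-Zero Gold and SureSelect strand-specific libraries, per the labels' protocols). The deposited gene and transcript tables hold estimated counts in whole numbers, made by the authors with cutadapt, HISAT2 and StringTie on mm10, per the submitters' processing notes. Tool versions, the annotation release and the strand setting were not given in the sources used here. The scaled tables, each with 1 column that matches no sample, were not used. Technical columns were summed. Of 48440 gene identifiers, 48058 were found in GENCODE M21 (GRCm38), which gave names, coordinates and exon lengths.

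Counts of all 14 replicates were fitted together with edgeR 4.0.16 in R 4.3.3 (TMM scaling, filterByExpr, robust quasi-likelihood test, Benjamini-Hochberg adjustment over 21237 genes), with 8 residual degrees of freedom and a call at adjusted p under 0.05. The procedure was tested on simulated counts with large planted changes and a smaller spread between replicates than the common spread of these data. That test does not measure error or power in these data. CPM were computed with TMM-scaled library sizes. Depth was 34892461 to 138313667 counts per column, and intervals are 95%. Members and lists were chosen with earlier results of these data known. Pathway genes were named by rule, as up to 3 called genes with the smallest p in each list and comparison or, with none called, the gene with the smallest p. Snai2, Hmga2 and Tsc22d1 in M6 knockdown were named outside this rule. Genes named in the text on likeness were the 3 nearest per member. Motifs TATAAA and CACGTG were added after the windows were read.

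Replicates with the same number deviated together from their group means in M27H4 (r = 0.599, 0.340 and 0.356 across 13508 genes) and in 3T3-L1 (0.356), and the labels place them in the same lanes. In M27H4 the pairs of replicate 2 with replicate 3 also had positive values (0.314 and 0.203), while unlike pairs with replicate 1 were negative. In 3T3-L1, with 2 replicates in each group, the unlike pairs mirror the like pairs at -0.356, so there is 1 value only. Alternatives were other scalings, no low-count filter, DESeq2 1.42.0, a replicate block, only the groups compared, M6 columns of 1 lane and leaving out each replicate.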

Additional observations from a re-analysis of the deposited data

How the results depend on the processing

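All called differences of the 9 genes between lines kept their direction under every alternative run. Tgfb1 between M27H4 and M6 lost its call with a replicate block over all lines (log2 change -0.86, adjusted p = 0.0803) and with only the groups compared (-0.91, adjusted p = 0.0907). With M6 knockdown, 29 genes were called in all, against 64 with no low-count filter, 228 by DESeq2, 293 with a replicate block, 0 with only the groups compared and 6 to 60 without one replicate. With M27H4 overexpression, 2 were called, against 4 by DESeq2, 1 with the block, 1 with only the groups compared and 1 to 2 without one replicate. With 3T3-L1 overexpression, 1 was called, against 2 with no filter, 13 by DESeq2, 0 with the block, 4 with only the groups compared and 0 to 5 without one replicate. The difference between both overexpression effects was called for 1 gene, against 0 with RLE size factors, 0 with library totals, 10 by DESeq2, 0 with the block and 0 to 5 without one replicate. The cause of these shifts was not tested.

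M6 replicates share a number and, for part of their columns, a lane (r = 0.577). With 2 replicates in each group the pairs mirror each other, so there is 1 value only, as in 3T3-L1. With the replicate block, 1 of the 9 members was called in the M6 knockdown, Tgfbi (log2 change -1.42, adjusted p = 0.0389), and Tgfbr3 (0.0164) and Skil (0.0580) changed sign. The block changed no member's call in M27H4 or 3T3-L1 overexpression.

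Other sign changes were in uncalled log2 changes near 0. Tgfb1 in M6 knockdown was 0.00042 with RLE size factors, 0.0049 with no filter, 0.0006 by DESeq2, 0.0939 with M6 columns of 1 lane and 0.0064 with only the groups compared. Tgfb2 in M27H4 overexpression was 0.0106, 0.0360, 0.0074 and 0.0204 with RLE size factors, library totals, DESeq2 and only the groups compared. Tgfb2 in 3T3-L1 overexpression was -0.00036, -0.0077, -0.0103 and -2.9e-05 with RLE size factors, library totals, no filter and DESeq2, and Skil was -0.0013 with library totals and -0.0063 with no filter. For the difference between overexpression effects, Tgfb2 was 0.0109, 0.0437 and 0.0074 with RLE size factors, library totals and DESeq2.

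Without one replicate each, log2 changes in M6 knockdown ran from -0.44 to 0.48 for Tgfb1, -0.16 to 1.11 for Tgfb2, -0.0227 to 0.55 for Tgfbr1, -0.37 to 0.44 for Tgfbr3, -0.12 to 0.50 for Smad7 and -0.50 to 0.76 for Skil. In M27H4 overexpression they ran from -0.34 to 0.0259 for Tgfb1, -0.0849 to 0.0360 for Tgfb2, -0.31 to 0.0994 for Tgfb3 and -0.44 to 0.0593 for Tgfbi. In 3T3-L1 overexpression they ran from -0.17 to 0.17 for Tgfb2, -0.0836 to 0.25 for Tgfb3, -0.14 to 0.37 for Smad7, -0.13 to 0.15 for Skil and -0.22 to 0.84 for Tgfbi. For the difference between overexpression effects they ran from -0.19 to 0.16 for Tgfb2, -0.39 to 0.0243 for Tgfb3, -0.24 to 0.0052 for Tgfbr1, -0.0715 to 0.21 for Skil and -1.06 to 0.0014 for Tgfbi. Between M27H4 and M6 controls the uncalled changes ran from -0.31 to 0.19 for Tgfbr1 and -0.0540 to 0.48 for Smad7. A lone sample left in a group was assumed to vary like the other groups. Groups of 2 or 3 replicates leave intervals of about 1 log2 unit or more for most members in the treatment comparisons.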
